A study of Homo sapiens with 6 samples.

Results

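The genes described are those whose symbol names a kinesin (KIF followed by a digit or C) or a centromere protein (CENP followed by a letter). Of the 11048 gene symbols measured, 50 met this rule, 29 as kinesins and 21 as CENP symbols. The rule uses the symbols and no measured value. MM1.S, a human multiple myeloma cell line, had been exposed for 6 h to 3 µM CCF642, to 3 µM of the related compound CCF642-34, or to the DMSO vehicle, and polyA RNA was sequenced from 2 libraries of each group. Both compounds inhibit protein disulfide isomerase PDIA1, an enzyme that forms disulfide bonds in the endoplasmic reticulum. All 6 libraries came from this line, and the labels do not say whether the 2 libraries of a group came from separate cultures. The p values thus rest on the spread between these libraries, which may be technical. The fit took the spread of each gene largely from other genes of similar level.

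Kinesins are motor proteins that use ATP to walk along microtubules or to shorten them. Mitotic kinesins build the spindle, move chromosomes and organise the midzone where the daughter cells separate, and many of their genes are known to be transcribed mainly in G2 and mitosis. Transport kinesins carry vesicles and organelles throughout interphase. Centromere proteins mark the site of kinetochore assembly with the histone variant CENPA and hold a network of proteins there through the cell cycle. Among the 50 genes were 12 mitotic kinesins (CENPE, which is a kinesin, included), 11 transport kinesins, 7 kinesins with other roles, 14 proteins of the CENPA nucleosome and its constitutive network, and 4 other CENP proteins. CENPBD1 and CENPBD1P1 share only a domain name with CENPB or are a pseudogene and were kept apart. KIFC1 and KIF4B of the mitotic kinesins, and KIF1A, KIF5A, KIF5C and KIF17 of the transport kinesins, were not among the listed genes.

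The deposited values were CPM, in which the reads on a gene are divided by all reads of the library and put on a common scale. The totals lay between 20567313 and 28459677 reads, and each of the 50 genes held between 31 and 28840 reads in every library. Of 10 symbols written as plasma cell markers 9 were listed (IGJ is the older symbol of JCHAIN). Their summed CPM were 9322 to 9384 with DMSO, 6585 to 6628 with CCF642 and 7382 to 7416 with CCF642-34. Single markers varied unequally over the 6 libraries, with JCHAIN at 1792 to 4321 CPM, SDC1 at 239 to 869.8 and XBP1 at 1311 to 1391. JCHAIN spanned the widest range, so the sum does not describe each marker. CD14 and MS4A1, markers of other blood cells, were not listed, and CD3E lay at 2.09 to 3.19 CPM. EPCAM and COL1A1 summed to 2.13 to 2.48 CPM with DMSO, 10.2 to 11.8 with CCF642 and 4.36 to 4.78 with CCF642-34. Over the 6 libraries EPCAM lay at 0.981 to 1.62 CPM and COL1A1 at 1.09 to 10.5, so the rise was mostly that of COL1A1. Its cause was not tested, nor was the part of any other cells in the results below. Fold changes are log2 differences of CPM after edgeR's TMM scaling (which sets the trimmed mean log ratio between libraries to 0) and a pseudocount of 1, which shrinks the changes of low genes, and calls are limma's two-sided test at a Benjamini-Hochberg adjusted p under 0.05 over all 11048 genes. Both comparisons with DMSO used the same 2 DMSO libraries.

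All 12 mitotic kinesins were lower with CCF642-34 and all 12 were lower with CCF642. The role lists were chosen with earlier results of these data known, so this count depends on how genes were placed. KIF2A, which also works at spindle poles, was placed with the other kinesins. It was not called, at -0.01 with CCF642 and -0.08 with CCF642-34. The transport kinesins were divided, with 4 of 11 lower and none called higher with CCF642-34, and 4 lower and 4 higher with CCF642. Each count of 4 was 36.4% of the 11. With CCF642 this was near the share of all genes called, 31.3% lower and 31.8% higher. With CCF642-34 the share of all genes called lower was 27.9%. Over all 50 genes, CCF642-34 lowered 29 and raised 2, against a background of 27.9% of all genes called lower and 29.7% called higher. CCF642 lowered 24 and raised 6, against 31.3% lower and 31.8% higher. The median log2 fold change of the mitotic kinesins was -0.60 with CCF642-34 and -0.53 with CCF642, that of the transport kinesins was -0.05 and 0.08, and that of all genes was 0.01 and -0.01. For the transport kinesins with CCF642-34, 1 gene was higher at an unadjusted p under 0.05, and edgeR and DESeq2 on the recovered reads also called 0 higher. In bulk RNA, fewer cells in a stage of the cycle and less of an mRNA per cell cannot be told apart. In CPM scaled by library size alone, the median of all genes moved to -0.08 with CCF642-34 and -0.13 with CCF642, and that of the transport kinesins with CCF642 turned to -0.01.

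**Figure D1:**
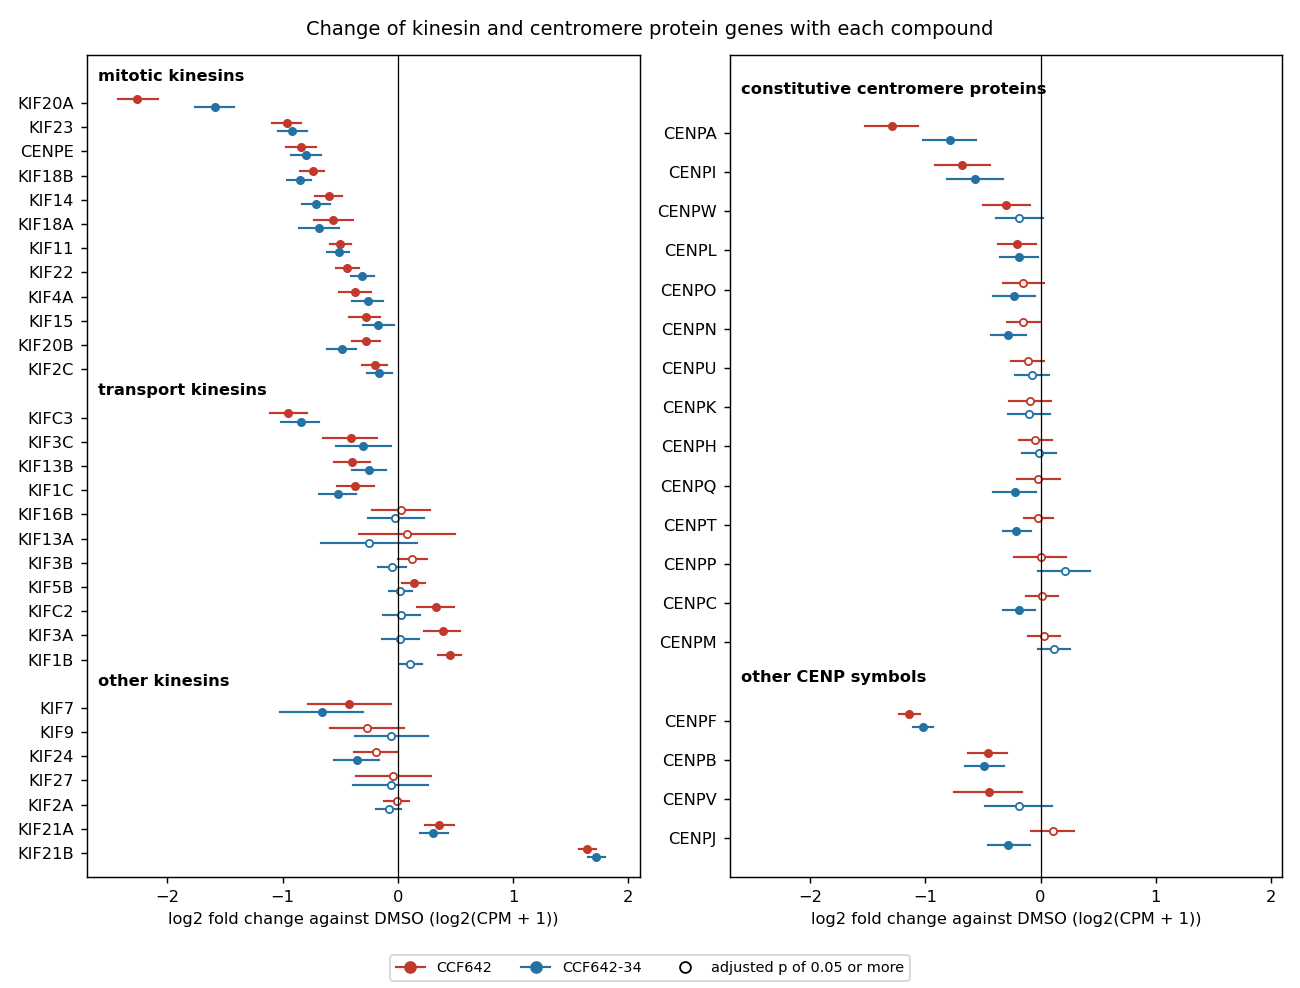
Log2 fold change against DMSO (x axis, log2 of CPM + 1) for the 48 genes with a role, in red for CCF642 and blue for CCF642-34, with 95% confidence intervals as lines and open points for adjusted p of 0.05 or more. All 12 mitotic kinesins lay left of 0 with both compounds, the transport kinesins lay on both sides, and KIF21B stood furthest right at 1.64 and 1.72.

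KIF20A carried the steepest fall of the set. The protein brings the chromosomal passenger complex to the spindle midzone in anaphase. Its level was 80.6 and 78.5 CPM in the DMSO libraries, 14.1 and 14.8 with CCF642, and 22.4 and 26.1 with CCF642-34. The 3 groups did not overlap, and the order was DMSO, then CCF642-34, then CCF642. On the log2 scale KIF20A fell by 2.26 with CCF642 (SE 0.085, adjusted p = 1.1e-27) and by 1.59 with CCF642-34 (adjusted p = 2e-21), which left 20.9% and 33.2% of the DMSO level on that scale. Ranked by log2 fold change, it was number 1 from the lowest of all 11048 genes with CCF642 and number 11 with CCF642-34. Its exons share 3.34% of their bases with the opposite-strand gene BRD8 in GENCODE release 29, and the sources used here do not say whether reads were counted by strand.

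Other mitotic kinesins followed at a smaller size. KIF23, the motor of the centralspindlin complex, stood at 124 and 114 CPM with DMSO, 53.6 and 56.5 with CCF642, and 59.3 and 58.1 with CCF642-34. Every treated library lay under both DMSO libraries, and the log2 fold change was -0.96 with CCF642 (adjusted p = 6.23e-19) and -0.92 with CCF642-34 (adjusted p = 6.58e-18). CENPE, which carries chromosomes to the metaphase plate, fell from 137 and 128 CPM to 61.1 and 72.9 with CCF642 and to 68.9 and 73.1 with CCF642-34. KIF18B, which controls astral microtubules, changed by -0.74 and -0.85, and its relative KIF18A, which limits the length of kinetochore fibres, by -0.56 and -0.68, with CCF642 and CCF642-34 in that order. KIF14, needed for cytokinesis, changed by -0.60 and -0.71.

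The remaining mitotic kinesins fell less. KIF11, which slides antiparallel microtubules apart to make the spindle bipolar, went from 263 and 264 CPM to 163 and 176 with CCF642 and 169 and 178 with CCF642-34, and its log2 fold changes were -0.50 (adjusted p = 3.62e-13) and -0.51 (adjusted p = 2.29e-13). KIF15, which can take over part of the work of KIF11, changed by -0.28 and -0.17. The chromatin-bound motors KIF22 and KIF4A changed by -0.44 and -0.37 with CCF642 and by -0.31 and -0.26 with CCF642-34. Reads of KIF4A may be shared with its retrocopy KIF4B. KIF20B, another cytokinesis motor, changed by -0.28 with CCF642 and -0.48 with CCF642-34. The smallest change was that of KIF2C, which takes microtubules apart at kinetochores, with 108 and 113 CPM in DMSO, 89.1 and 86.1 with CCF642 and 92.4 and 92.8 with CCF642-34. Its log2 fold changes were -0.20 (adjusted p = 0.00155) and -0.16 (adjusted p = 0.00965). In the 12 genes the 4 treated libraries lay below both DMSO libraries, an arrangement found in 31.0% of all genes. With CCF642-34 the number called lower was 10 to 12 when single libraries were left out, since KIF15 lost its call without either DMSO library or CCF642-34 replicate 1 and in DESeq2, and KIF2C without DMSO replicate 2.

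**Figure D2:**
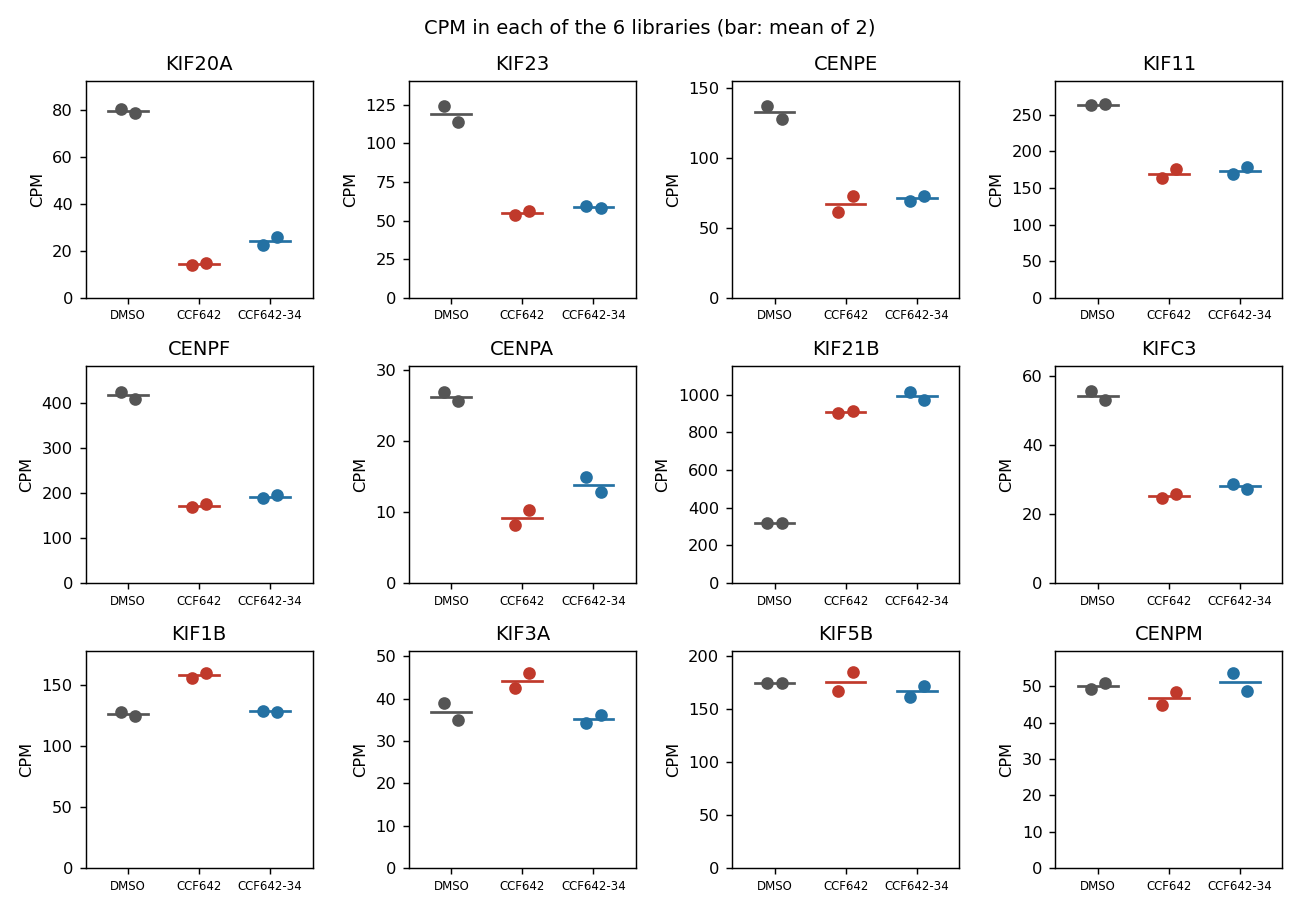
Deposited CPM (y axis, linear from 0) in each of the 6 libraries for 12 genes, with the mean of the 2 libraries of a group as a bar. KIF20A, KIF23, CENPE, KIF11, CENPF, CENPA and KIFC3 lay lower in all 4 treated libraries, KIF21B lay higher, and KIF1B and KIF3A lay highest in the CCF642 libraries.

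CENPF fell about 2-fold with both compounds. It is a large protein of the kinetochore and nuclear matrix that accumulates in G2. It was at 425 and 408 CPM with DMSO, 168 and 176 with CCF642, and 189 and 195 with CCF642-34. The treated libraries were far below both DMSO libraries, with log2 fold changes of -1.14 (SE 0.044, adjusted p = 3.35e-27) and -1.02 (adjusted p = 4.53e-25). A 2-fold decrease combined with an unadjusted p below 0.05 was met by KIF20A and CENPF with CCF642-34, and by KIF20A, CENPA and CENPF with CCF642. Without DMSO replicate 1, CENPF was at -0.99 with CCF642-34 and no longer met it. The background at that criterion was 1.29% of all genes lower and 2.59% higher with CCF642-34, and 1.99% lower and 4.50% higher with CCF642. CENPB, which binds a short box in centromeric satellite DNA, had 36.9 and 42.0 CPM with DMSO, 25.8 in both CCF642 libraries, and 25.6 and 26.5 with CCF642-34. Its log2 fold changes were -0.46 (adjusted p = 6.45e-06) and -0.49 (adjusted p = 2.62e-06), with all treated libraries below DMSO.

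CENPA, the histone variant that defines the centromere, led the constitutive proteins. Its CPM were 26.8 and 25.6 with DMSO, 8.22 and 10.2 with CCF642, and 14.9 and 12.8 with CCF642-34. No group overlapped another, and the log2 fold change was -1.29 with CCF642 (SE 0.114, adjusted p = 7.59e-14) and -0.79 with CCF642-34 (adjusted p = 8.05e-08). GENCODE places 6.96% of its exon bases within the same-strand gene SLC35F6. CENPI, a member of the constitutive network, had 16.0 and 16.5 CPM with DMSO, 8.85 and 8.90 with CCF642, and 9.84 and 10.1 with CCF642-34. The treated libraries of CENPI again lay under DMSO, at -0.68 (adjusted p = 2.9e-06) and -0.57 (adjusted p = 6.76e-05).

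The other constitutive proteins moved little. Of the 14, 8 were lower with CCF642-34 and 4 with CCF642, with medians of -0.19 and -0.10. The background was 27.9% of all genes lower with CCF642-34 and 31.3% with CCF642, and the count with CCF642 was near it. CENPA, CENPI and CENPL were lower with both compounds, CENPW was called with CCF642 alone, and CENPN, CENPT, CENPC, CENPO and CENPQ with CCF642-34 alone. These 5 had log2 fold changes of -0.28 to -0.19 with CCF642-34 and -0.15 to 0.01 with CCF642, and between the compounds CENPT (adjusted p = 0.0168) and CENPC (adjusted p = 0.0237) differed while the other 3 were not called. Both of these differences lost their call with library size alone, without CCF642 replicate 1 and without either CCF642-34 library, and CENPC also in DESeq2. CENPL lost both calls in DESeq2, and with CCF642 its log2 fold change was -0.20, or -0.08 without DMSO replicate 2. CENPH, a network protein, had the smallest change as a mean over the compounds, with 47.0 and 45.5 CPM in DMSO, 41.0 and 40.4 with CCF642 and 42.9 and 43.3 with CCF642-34. After TMM scaling its log2 fold changes were -0.05 and -0.01 (adjusted p = 0.901 with CCF642-34). CENPM, at 49.3 and 50.8 CPM with DMSO, had log2 fold changes of 0.03 and 0.12, neither of them called. The count of 8 with CCF642-34 was 5 in DESeq2, 5 without either DMSO library and 4 without either CCF642-34 library. The count of 4 with CCF642 was 2 without DMSO replicate 2 and 10 with library size alone. CENPO and CENPP share 27.0% and 38.0% of their exon bases with the opposite-strand genes ADCY3 and IPPK, and CENPN shares 12.8% with CMC2, so their reads are uncertain if strand was not used.

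A gene for a centriole protein carries a CENP symbol too. This gene, CENPJ, had 33.5 and 34.6 CPM with DMSO, 30.5 and 36.7 with CCF642, and 23.2 and 29.6 with CCF642-34. The CCF642 libraries lay on both sides of DMSO. It was lower with CCF642-34 (log2 fold change -0.28, adjusted p = 0.00906) but lost that call without DMSO replicate 2 and without CCF642-34 replicate 1, where it was -0.26 and -0.11. CENPV changed by -0.45 with CCF642 (adjusted p = 0.0056), which was not called without DMSO replicate 1, and stood at -0.19 with CCF642-34 (adjusted p = 0.269).

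Sequence upstream of the start sites was read for the genes with an entry in RefSeq's promoter table (GRCh38.p14, 250 bases before to 50 after the start). Letters were searched on both strands. The cell cycle homology region (CHR), known from promoters of G2 and mitotic genes, was searched as TTTGAA and as its variant TTCGAA. The CCAAT box was searched by its name letters. E2F-like sites were searched as TTCGCGC, as the variant TTGGCGC and as the further variant TTCCCGC. The 150 bases before the start of KIF20A (chr5:138178962-138179111, plus strand), KIF23 (chr15:69414199-69414348, plus strand), KIF11 (chr10:92592980-92593129, plus strand) and CENPA (chr2:26785906-26786055, plus strand) are shown because these are the mitotic motors and the centromere gene described above. That of the transport motor KIF5B (chr10:32056426-32056575, minus strand) is also shown. KIF5B was the 1 transport kinesin of 8 whose window held CHR letters. Each is written 5′ to 3′ on the strand of the gene, with CHR and CCAAT letters of either strand in capitals.
KIF20A: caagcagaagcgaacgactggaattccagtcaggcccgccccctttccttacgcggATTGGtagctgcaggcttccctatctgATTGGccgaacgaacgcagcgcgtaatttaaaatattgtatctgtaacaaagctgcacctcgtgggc
KIF23: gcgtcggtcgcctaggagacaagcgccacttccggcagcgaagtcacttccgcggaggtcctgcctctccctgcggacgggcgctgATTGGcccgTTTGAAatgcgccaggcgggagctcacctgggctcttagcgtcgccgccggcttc
KIF11: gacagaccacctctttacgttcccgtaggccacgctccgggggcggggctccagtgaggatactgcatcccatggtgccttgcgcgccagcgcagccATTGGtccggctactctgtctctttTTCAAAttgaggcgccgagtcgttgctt
CENPA: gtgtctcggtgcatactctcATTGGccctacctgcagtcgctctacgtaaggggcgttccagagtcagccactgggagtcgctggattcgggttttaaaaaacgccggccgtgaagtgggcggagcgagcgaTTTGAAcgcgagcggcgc
KIF5B: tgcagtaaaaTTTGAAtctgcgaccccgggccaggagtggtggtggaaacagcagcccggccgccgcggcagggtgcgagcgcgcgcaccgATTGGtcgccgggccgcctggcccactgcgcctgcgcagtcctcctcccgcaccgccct

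CHR letters began 55 bases before the start in KIF23, 28 in KIF11 and 18 in CENPA. The window of KIF20A held CCAAT letters 94 and 67 bases before the start. It held neither TTTGAA nor TTCGAA, and other forms of the CHR were not searched. KIF5B held CHR letters 140 bases before the start and CCAAT letters at 59. Among the mitotic kinesins, 9 of 12 windows held CHR letters (75.0%), against 1 of 8 for the transport kinesins (12.5%), 5 of 11 for the constitutive centromere proteins (45.5%) and 15.7% of the 8871 listed genes with a window. KIF20A, KIF2C and CENPE were the 3 mitotic kinesins without them. CCAAT letters were in 75.0% of the mitotic windows, 72.7% of the constitutive centromere windows, 37.5% of the transport windows and 43.9% of those of listed genes. E2F-like letters were in 25.0% of the mitotic, 25.0% of the transport and 36.4% (4 of 11) of the constitutive centromere windows. Among listed genes the share was 22.2%. These are matches of letters in a fixed window, not binding sites.

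Among the transport kinesins, 4 were lower with both compounds. KIFC3, a motor that walks toward microtubule minus ends, had 55.6 and 53.1 CPM with DMSO, 24.7 and 25.7 with CCF642, and 28.8 and 27.2 with CCF642-34. Every treated library lay under both DMSO libraries, with log2 fold changes of -0.95 (adjusted p = 1.43e-14) and -0.84 (adjusted p = 7.72e-13). KIF1C, a carrier of vesicles and mRNAs, had 46.8 and 43.5 CPM with DMSO, 33.5 and 29.9 with CCF642, and 30.3 and 28.3 with CCF642-34. Its log2 fold changes were -0.37 (adjusted p = 9.62e-05) and -0.52 (adjusted p = 3.24e-07).

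The other 2 decreases were smaller. KIF13B, a vesicle motor, had 51.0 and 46.2 CPM with DMSO, 33.0 and 33.8 with CCF642, and 39.4 and 36.9 with CCF642-34. It changed by -0.40 (adjusted p = 1.29e-05) and -0.25 (adjusted p = 0.00408). KIF3C, a partner of KIF3A in a heterodimeric motor, had 15.8 and 16.0 CPM with DMSO, 10.4 and 10.9 with CCF642, and 11.0 and 13.0 with CCF642-34. It changed by -0.41 (adjusted p = 0.00206) and -0.30 (adjusted p = 0.0273). In both genes the treated libraries lay under DMSO. With CCF642-34 both calls were lost without DMSO replicate 1, which left 2 of 11 lower, and KIF3C also lost its call in DESeq2, without DMSO replicate 2 and without CCF642-34 replicate 1.

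The 4 increases were seen with CCF642. KIF1B, which carries mitochondria and synaptic vesicle precursors, had 128 and 125 CPM with DMSO, 156 and 160 with CCF642, and 129 and 128 with CCF642-34. The CCF642-34 libraries stood near the DMSO level, with a log2 fold change of 0.11 (adjusted p = 0.0536) against 0.45 with CCF642 (adjusted p = 4.62e-11). KIF3A, a motor of vesicles and of intraflagellar transport, had 38.9 and 34.9 CPM with DMSO, 42.5 and 45.9 with CCF642, and 34.2 and 36.2 with CCF642-34. It rose by 0.39 with CCF642 (adjusted p = 2.65e-05) and stood at 0.02 with CCF642-34 (adjusted p = 0.84).

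KIFC2, a minus-end motor, had 32.7 and 35.0 CPM with DMSO, 40.4 and 37.4 with CCF642, and 31.9 and 33.0 with CCF642-34. It rose by 0.33 with CCF642 (adjusted p = 0.000351), and 17.8% of its exon bases overlap FOXH1, which was not among the listed genes. KIF5B, the conventional kinesin heavy chain expressed in most cells, had 175 CPM in both DMSO libraries, 167 and 185 with CCF642, and 162 and 172 with CCF642-34. Its deposited CPM with CCF642 lay on both sides of DMSO. The increase of 0.14 with CCF642 (adjusted p = 0.0116) depended on the TMM scaling, was 0.01 with library size alone, and was lost without either DMSO library or without CCF642 replicate 2, where it was 0.06. KIF16B, an early endosome motor, showed the smallest change, with 11.8 and 12.5 CPM in DMSO, 12.5 and 10.2 with CCF642 and 11.8 and 10.8 with CCF642-34, and log2 fold changes of 0.03 and -0.02. KIF13A, another vesicle motor, lay at 1.12 to 2.04 CPM and was not called.

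KIF21B rose most of all 50 genes. It is a motor that also restrains microtubule growth and is expressed in lymphocytes and neurons. It had 319 CPM in both DMSO libraries, 906 and 912 with CCF642, and 1013 and 972 with CCF642-34. The treated libraries lay far above DMSO, by log2 fold changes of 1.64 (SE 0.037, adjusted p = 7.21e-37) and 1.72 (adjusted p = 1.81e-37), or 3.12-fold and 3.30-fold on this scale. It was the 1 gene of the 50 at least 2-fold higher, and it ranked 130 and 71 from the highest of all genes. Per kb of the longest coding transcript, KIF21B went from 32.2 CPM with DMSO to 91.8 with CCF642 and 100.3 with CCF642-34. With DMSO, KIF22 (64.6 CPM per kb), KIF11 (54.2) and CENPF (40.4) were among the genes above it, and with CCF642 KIF22 was at 43.3 and KIF11 at 34.9 CPM per kb.

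Its relative KIF21A rose less, by 0.36 with CCF642 and 0.31 with CCF642-34. KIF7, a regulator of Hedgehog signalling at the cilium tip, had 7.26 and 5.93 CPM with DMSO, 5.49 and 3.23 with CCF642, and 4.22 and 2.95 with CCF642-34. It was lower with CCF642-34 (log2 fold change -0.66, adjusted p = 0.0015) and with CCF642 (-0.42, adjusted p = 0.0393). The first of these calls was lost without CCF642-34 replicate 2 (-0.46) and the other in edgeR, in DESeq2 and without CCF642 replicate 2 (-0.11), among other settings. KIF7 also shares 11.8% of its exon bases with the opposite-strand gene TICRR. KIF24, a centriole motor, was lower with CCF642-34 (-0.35, adjusted p = 0.00146, not called without DMSO replicate 2). KIF2A, which shortens microtubules at spindle poles and in interphase, had 104 and 101 CPM with DMSO, 91.1 and 94.1 with CCF642, and 87.4 and 94.6 with CCF642-34. Its log2 fold changes were -0.01 and -0.08, the smallest of these kinesins as a mean over the compounds, and KIF9 and KIF27, linked to cilia, were not called either.

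Before TMM scaling, the sum over the 30 kinesin genes (the 29 KIF symbols and CENPE) stayed within a narrow range. The TMM factors were 1.05 for both DMSO libraries and 0.957 to 0.992 for the treated libraries. Dividing by them lowers the DMSO sums and raises the treated sums, so the narrow range holds for deposited CPM only. The summed deposited CPM were 2616 and 2578 with DMSO, 2541 and 2625 with CCF642, and 2648 and 2639 with CCF642-34. Mitotic kinesins held 1461 and 1438 CPM with DMSO, 845 and 903 with CCF642, and 896 and 921 with CCF642-34. Their share of kinesin CPM thus went from 55.8% in both DMSO libraries to between 33.3% and 34.9% in the 4 treated libraries. KIF21B alone went from 12.2% and 12.4% to 35.6% and 34.7% with CCF642 and 38.3% and 36.8% with CCF642-34. Transport kinesins held 24.0% and 23.9% with DMSO, 23.4% and 23.3% with CCF642, and 20.6% and 20.8% with CCF642-34. With CPM divided by transcript length, the mitotic share was 65.3% and 65.4% with DMSO and 47.0% to 49.0% with the compounds, and that of KIF21B 6.10% and 6.17% against 20.7% to 22.7%.

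**Figure D3:**
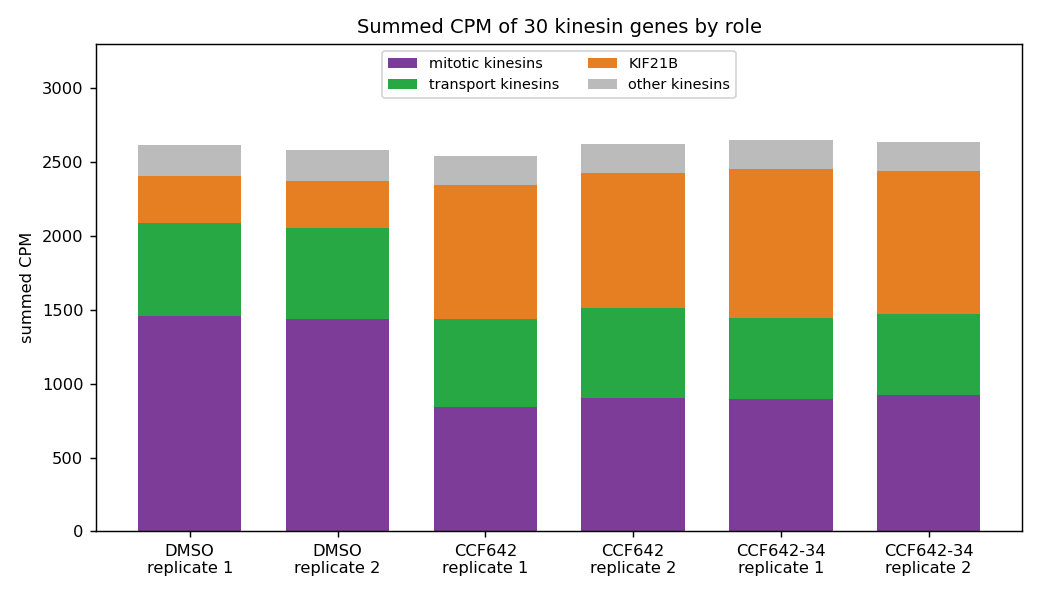
Summed deposited CPM (y axis, linear from 0) of 30 kinesin genes in each of the 6 libraries (x axis), stacked by role, with KIF21B drawn apart from the other 6 kinesins of its class. The total stays between 2541 and 2648 CPM while the mitotic part is 1438 to 1461 with DMSO and 845 to 921 with the compounds, and KIF21B goes from 319 to between 906 and 1013.

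The mean log2 level of the mitotic kinesins minus that of the transport kinesins gives the balance in each library. It was 1.55 and 1.56 with DMSO, 0.89 and 1.0 with CCF642, and 1.11 and 1.14 with CCF642-34. The DMSO libraries were highest, and the CCF642 libraries lay under those of CCF642-34. The mitotic means were 5.97 and 6.09 with CCF642 and 6.05 and 6.10 with CCF642-34. The transport means were 5.09 in both CCF642 libraries and 4.94 and 4.96 with CCF642-34. The order of the compounds in this balance thus came more from the transport than from the mitotic kinesins. For CCF642-34 against CCF642 the median log2 difference was 0.04 in the mitotic kinesins, with KIF20A highest at 0.67. In the transport kinesins the median was -0.15. Relative to DMSO the balance changed by -0.62 with CCF642 and -0.43 with CCF642-34. No p is given for it, since it is a score over chosen genes.

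Genes that work with these proteins were counted from hand-written lists, beside a background of 27.9% of all genes lower and 29.7% higher with CCF642-34, and 31.3% lower and 31.8% higher with CCF642. Of 18 kinetochore and CENPA-loading genes, 12 were lower and 2 higher with each compound, with medians of -0.43 with CCF642-34 and -0.40 with CCF642. SPC24 and SPC25, of the complex that grips microtubules, had log2 fold changes of -1.02 and -0.92 with CCF642. MIS12, of the platform beneath that complex, rose from 61.9 CPM with DMSO to 107 with CCF642 and 93.4 with CCF642-34, by 0.91 and 0.68. Of 19 spindle and midzone genes, 16 were lower with each compound, with medians of -0.43 with CCF642-34 and -0.55 with CCF642. ASPM, a spindle pole protein, fell from 424 CPM to 186 with CCF642 and 182 with CCF642-34, and the chromosomal passengers BIRC5 and CDCA8 changed by -1.01 and -0.96 with CCF642. Of 29 interphase motor partners (kinesin light chains, adaptors, dynein and dynactin), 14 were higher with each compound, and 3 were lower with CCF642-34 and 4 with CCF642, with medians of 0.17 and 0.15. DCTN4, a dynactin subunit, rose from 59.4 CPM to 111 with CCF642 and 105 with CCF642-34, while the dynein adaptor BICD2 fell from 173 to 98.7 and 106.

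CCF642 and CCF642-34 were compared at the same dose and time, as 1 pair of compounds. CCF642-34 was lower than CCF642 for 8 of the 50 genes and higher for 4, against 17.5% of all genes lower and 15.9% higher. None of the 50 met the 2-fold criterion in limma, edgeR or DESeq2, while 0.299% of all genes met it as lower and 0.00905% as higher in limma. The count of 8 was 4 and 5 without CCF642-34 replicate 1 and 2, and the count of 4 was 2 without either DMSO library, CCF642 replicate 1 or CCF642-34 replicate 1. With library size alone the split was 5 lower and 6 higher in place of 8 and 4. KIF20A differed most, 0.67 higher with CCF642-34 (95% confidence interval 0.49 to 0.84, adjusted p = 1.89e-08). CENPA was 0.51 higher (0.28 to 0.74, adjusted p = 0.000467). CENPJ was lower (-0.39, adjusted p = 0.000969), though not without CCF642-34 replicate 1, where the difference was -0.22 and not called. CENPF was 0.12 higher (adjusted p = 0.0372), a call lost in 3 alternatives with all libraries and in several without 1.

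The 4 transport kinesins that differed were all lower with CCF642-34. The log2 difference was -0.37 for KIF3A (adjusted p = 0.000207), -0.34 for KIF1B (adjusted p = 3.13e-07), -0.30 for KIFC2 (adjusted p = 0.00266) and -0.17 for KIF3B (adjusted p = 0.0235). The call of KIF3B was lost with library size alone and without CCF642 replicate 1 or CCF642-34 replicate 2. Of the mitotic kinesins, KIF20B was lower with CCF642-34 (-0.21, adjusted p = 0.00854), though not called without CCF642 replicate 2 or CCF642-34 replicate 1, and KIF22 was higher (0.13, adjusted p = 0.0472), which was lost in most other fits. The remaining 9 mitotic kinesins were not called, and for KIF11 the interval of the difference was -0.11 to 0.08, for CENPE -0.08 to 0.17 and for KIF23 -0.07 to 0.17. The interval for KIF21B was 0.01 to 0.16 (adjusted p = 0.0813). For the scarce KIF13A it was -0.75 to 0.09, wide enough to hold any of the differences called among transport kinesins.

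**Figure D4:**
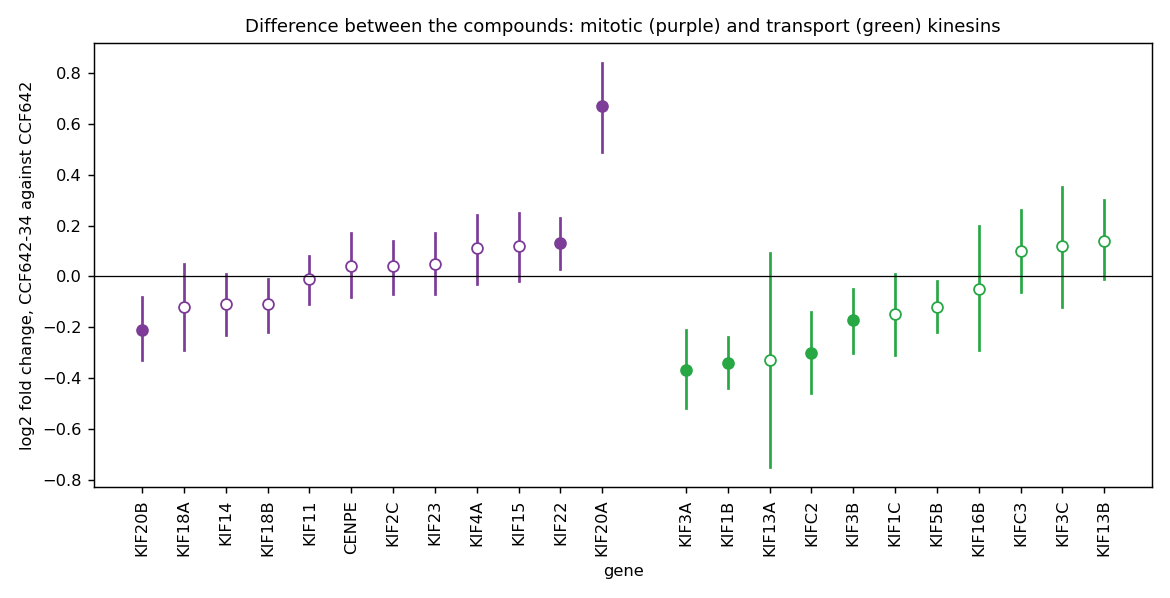
Log2 fold change of CCF642-34 against CCF642 (y axis) for 12 mitotic kinesins in purple and 11 transport kinesins in green, with 95% confidence intervals as lines and filled points for adjusted p under 0.05. KIF20A stands apart at 0.67, and the 4 filled transport kinesins lie between -0.37 and -0.17.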

How the data were processed

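PolyA RNA of MM1.S cells was sequenced in 6 libraries, 2 for each of DMSO, CCF642 and CCF642-34. The authors deposited CPM values for 11048 gene symbols per library, a unit read from the values, since it is not given in the sources used here. The submitters' processing notes name STAR, edgeR 3.24.3, limma 3.38.3 and hg19, without roles or order. The counting tool, annotation and use of strand are not given in the sources used here. Listed genes held 99.9% of each library, and every gene reached at least 1.5 CPM in some library, so genes below had been left out. All values (100%) were whole reads within 0.05 read. For CCF642-34, where the smallest value stood for several reads, the size of a read was taken as a common divisor of the values, so its wholeness is no independent check there. A series table of the same libraries was not used.

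CPM were scaled by TMM factors (edgeR 4.0.16), a pseudocount of 1 was added, and log2 values were fitted with limma (3.58.1, R 4.3.3, variance trend) in 1 model of 3 groups with 3 residual and 42.9 prior degrees of freedom. In genes with at least 50 reads, replicates differed by 2.29 (DMSO), 4.65 (CCF642) and 4.04 (CCF642-34) times the squared difference that counting alone gives, so none was a duplicate. Scripts were tested on simulated data. Values in every library are given for genes 2-fold from DMSO, transport kinesins called against DMSO, the 2 largest and the smallest change of each role, and the 3 largest differences between compounds. CENPE, KIF11, KIF13A, KIF18A, KIF18B and others are named besides as members. Lengths and exon overlaps came from GENCODE release 29 and promoters from RefSeq. The genes, role lists and partner lists were chosen with earlier results of these data known. Alternatives were DESeq2 1.42.0 size factors or test, library size alone, a mean CPM minimum of 5, a pseudocount of 0.1 or 4, the quasi-likelihood test of edgeR on recovered reads, fits of the 2 groups compared, a replicate block and leaving out each library.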

Additional observations from a re-analysis of the deposited data

How the results depend on the processing

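Against DMSO, 12 mitotic kinesins were lower with each compound in every alternative that kept all libraries, except DESeq2 with CCF642-34 (11). With CCF642-34, the 8 constitutive centromere proteins called lower became 5 in DESeq2, and the 0 transport kinesins called higher became 1 (KIF1B) in the fit of the 2 groups compared. With CCF642, the 4 constitutive centromere proteins became 10 with library size alone. Between the compounds, 4 genes higher became 2 with DESeq2 size factors, in DESeq2 and in the fit of 2 groups. With library size alone, 8 genes lower became 5, transport kinesins higher went from 0 to 1 (KIF13B), and the 2 constitutive centromere proteins lower became 0, or 1 in DESeq2. The causes were not tested. No log2 fold change called in the reported fit turned its sign.

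When single libraries were left out, the lone library was assumed to vary like the other groups. With CCF642-34 the counts were 21 to 29 genes lower, 2 to 3 higher, 10 to 12 mitotic kinesins lower, 2 to 4 transport kinesins lower, 0 to 1 higher, and 4 to 8 constitutive centromere proteins lower. With CCF642 they were 22 to 25 genes lower, 5 to 7 higher, 12 mitotic kinesins, 4 transport kinesins lower, 3 to 4 higher, and 2 to 4 constitutive centromere proteins. Between the compounds they were 4 to 11 genes lower, 2 to 5 higher, 0 to 2 mitotic and 3 to 5 transport kinesins lower, and 0 to 3 constitutive centromere proteins lower. The genes 2-fold apart were 2 to 3 and 4 to 5 against DMSO. With a replicate block, 29 genes were lower and 2 higher with CCF642-34, 24 and 6 with CCF642, and 9 lower and 4 higher between compounds, where KIF5B was added. The deviations of same-numbered libraries had correlations of -0.047, -0.0771 and 0.111 between groups. With 2 libraries a group, these values cannot tell whether same-numbered libraries shared a culture or preparation.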
